A study of Mus musculus with 6 samples.

Results

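Guanylate-binding protein (GBP) genes and tripartite motif (TRIM) genes of the Trim5/Trim12/Trim30 group were followed in cultured fibroblasts of the mammary gland from 2 inbred mouse strains, BALB/c and C57BL/6. The genes were a list of 7 symbols, Gbp2b, Gbp2, Gbp3, Gbp7, Trim12a, Trim12c and Trim30a, put together because Gbp2b and Trim12a differed between the strains in these same libraries. Of the 7, 6 were among the 12023 genes of the count table, and Trim30a was not, under that symbol or under any other symbol RefSeq gives for it. Each strain gave 3 biological replicates, from healthy females of 8 to 12 weeks of age. Fat pads were digested with collagenase, and the cells grew for 4 days on collagen, with no interferon or infection named in the labels. A magnetic separation step was used as well, of cells that the sources do not name. Reads came from the 3′ ends of polyadenylated RNA.

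GBPs are large GTPases of the interferon response. Interferon gamma induces them strongly, and they assemble on the vacuoles and membranes of intracellular pathogens, where they help to expose the pathogen and to start inflammasome signalling. TRIM proteins are mostly ubiquitin ligases with a RING domain. The mouse genes Trim12a, Trim12c and Trim30a lie in a cluster with relatives of primate TRIM5, which is known for binding retroviral capsids. The older name of Gbp2b is Gbp1, and an interferon-inducible GBP-1 protein is known to be present in some inbred mouse strains and missing in others.

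Total counts were 1035485 to 2713611 in the 3 BALB/c libraries and 1295349 to 4665896 in the 3 C57BL/6 libraries, so that 3 counts, taken as the floor for a count of 0, stood for 0.612 to 2.90 counts-per-million (CPM) per library. One library, C57BL/6 replicate 1, stood apart from the rest, with a mean correlation of 0.779 across genes with the other libraries, against 0.870 to 0.910 for the others. It also had the smallest share of fibroblast markers, 0.392% of all counts against 0.998% to 2.18% in the other 5, and the largest shares of macrophage and leukocyte markers (0.194% against 0.0840% to 0.188%) and of mammary epithelial markers (1.68% against 0.210% to 1.25%). These shares are sums that give most weight to abundant genes, and not every marker followed them. The fibroblast marker Pdgfrb was not lowest in that library, and the leukocyte markers Ptprc and Ctss were not highest. Of the 20 macrophage and leukocyte markers 18 were in the table, and at most 1 of these was at 0 in any library. Macrophages express GBP genes, and the part of these cells in the values below was not tested. In such bulk libraries fewer cells of a type and less RNA per cell cannot be told apart.

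The members form 2 clusters on GRCm38, the assembly called mm10 in the submitters' processing notes. Gbp7 (142530342 to 142550149), Gbp3 (142560026 to 142573209), Gbp2b (142594847 to 142619179) and Gbp2 (142620602 to 142638008) follow each other on the plus strand of chromosome 3. Trim12a (104299894 to 104315466), Trim12c (104338754 to 104353362) and Trim30a (104409025 to 104465193) are on the minus strand of chromosome 7. All 7 are annotated as protein-coding.

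The promoters of 2 pairs, Gbp2b with Gbp2 and Trim12a with Trim12c, are shown because the strains contrasted within each pair. They are RefSeq windows on GRCm38.p6, which is a C57BL/6J assembly, so the BALB/c letters were not examined. Each is 300 bases long, and the last 50 lie past an annotated start. Capitals mark matches to the core of the interferon-stimulated response element (ISRE), searched on both strands as GAAA, any 2 bases and GAAA, with overlapping matches counted. Every match shown is read here on its opposite strand, as TTTC, 2 bases and TTTC. The windows are chr3:142594597-142594896 (plus strand) for Gbp2b, chr3:142620413-142620712 (plus) for Gbp2, chr7:104315446-104315745 (minus) for Trim12a and chr7:104353300-104353599 (minus) for Trim12c.
Gbp2b: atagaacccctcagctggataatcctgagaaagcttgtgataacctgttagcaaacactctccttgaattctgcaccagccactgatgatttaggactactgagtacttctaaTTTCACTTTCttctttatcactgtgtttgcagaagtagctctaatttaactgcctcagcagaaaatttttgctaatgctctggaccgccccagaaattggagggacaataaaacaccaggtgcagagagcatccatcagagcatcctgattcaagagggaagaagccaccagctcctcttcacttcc
Gbp2: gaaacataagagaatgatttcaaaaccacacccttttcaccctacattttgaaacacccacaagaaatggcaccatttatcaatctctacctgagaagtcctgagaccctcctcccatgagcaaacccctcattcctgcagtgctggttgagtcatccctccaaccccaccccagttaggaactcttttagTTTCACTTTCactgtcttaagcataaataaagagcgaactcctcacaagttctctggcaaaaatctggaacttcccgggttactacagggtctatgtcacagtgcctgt
Trim12a: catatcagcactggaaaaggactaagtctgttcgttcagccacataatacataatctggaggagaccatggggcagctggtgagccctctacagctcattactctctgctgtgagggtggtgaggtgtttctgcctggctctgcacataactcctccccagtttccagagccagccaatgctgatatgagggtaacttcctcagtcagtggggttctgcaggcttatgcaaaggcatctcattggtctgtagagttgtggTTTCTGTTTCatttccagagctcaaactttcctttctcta
Trim12c: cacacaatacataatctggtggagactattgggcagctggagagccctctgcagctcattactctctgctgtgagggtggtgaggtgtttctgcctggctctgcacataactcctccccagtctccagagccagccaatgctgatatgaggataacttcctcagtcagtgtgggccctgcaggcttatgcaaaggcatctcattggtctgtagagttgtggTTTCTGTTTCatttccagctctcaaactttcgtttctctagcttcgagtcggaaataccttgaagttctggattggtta

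The match stands in the same 10 letters in Gbp2b and Gbp2, and again in the same 10 letters in Trim12a and Trim12c. It begins 137 bases before the start in Gbp2b, 59 before it in Gbp2, 29 before it in Trim12c and 10 bases after it in Trim12a. The Trim12a and Trim12c windows were identical at 247 of 260 aligned bases, and those of Gbp2b and Gbp2 at 135 of 208. The remaining members also hold the core, and so does Trim34a, a TRIM gene of the same cluster described below. Their matches, each with 10 bases on either side, read as follows, and that of Gbp3 is 2 overlapping matches. Trim30a has 2 windows, each with a match of the same 10 letters, and the match of window 1 is shown.
Gbp3: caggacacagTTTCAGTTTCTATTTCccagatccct
Gbp7: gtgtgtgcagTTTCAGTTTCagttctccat
Trim30a: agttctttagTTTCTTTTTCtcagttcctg
Trim34a: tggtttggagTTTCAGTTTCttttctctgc

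All 7 members thus had a window with the ISRE core, which 3.99% of the 27025 genes of the promoter table have. The core of the gamma-activated site, searched as TTCNNNGAA, was in 1 member window, that of Gbp7, and in 9.55% of all genes. Such matches are letters in a window and not sites shown to be used.

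Gbp2b was counted in every BALB/c library and was at or near 0 in every C57BL/6 library. It had 23, 36 and 20 counts in BALB/c replicates 1, 2 and 3, which are 15.3, 12.9 and 19.4 CPM, against 0, 0 and 1 counts in C57BL/6 replicates 1, 2 and 3. The strains did not overlap, and the 3 BALB/c libraries lay close together at 15.9 ± 3.27 CPM (SD, n = 3). The summed counts were 79 in BALB/c and 1 in C57BL/6, and after scaling to library size the ratio was 111 (95% counting interval 19.4 to 4442). Without C57BL/6 replicate 1 the ratio was 91.7.

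Gbp2 begins just downstream of Gbp2b and acts in the mouse against Toxoplasma and intracellular bacteria. It did not show the contrast of its neighbour. It had 16.01, 16.8 and 10.6 CPM in BALB/c replicates 1, 2 and 3, against 2.29, 25.8 and 16.1 CPM in C57BL/6 replicates 1, 2 and 3. The strains overlapped, and the lowest value was that of C57BL/6 replicate 1, with 3 counts. BALB/c averaged 14.5 ± 3.36 CPM and C57BL/6 14.7 ± 11.8 CPM (SD, n = 3 each), or 21.0 ± 6.84 CPM over the 2 C57BL/6 libraries other than replicate 1. The ratio of summed counts was 1.00, with a 95% counting interval of 0.746 to 1.34, and 0.850 without C57BL/6 replicate 1.

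Within a library the share of Gbp2b in the counts of Gbp2b and Gbp2 together depends on neither library depth nor scaling. It was 48.9% of 47 counts, 43.4% of 83 and 64.5% of 31 in BALB/c replicates 1, 2 and 3. In C57BL/6 it was 0 of 3 counts in replicate 1, 0 of 33 in replicate 2 and 1 of 80 in replicate 3. Exact 95% intervals were 41.1% to 57.1% for the 161 counts of BALB/c and 0.0218% to 4.71% for the 116 counts of C57BL/6. The exact 95% upper limit was 70.8% for the 3 counts of C57BL/6 replicate 1 and 10.6% for the 33 counts of replicate 2. Gbp2b thus made up close to an equal part of the pair in BALB/c and almost no part of it in C57BL/6 replicates 2 and 3.

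**Figure D1:**
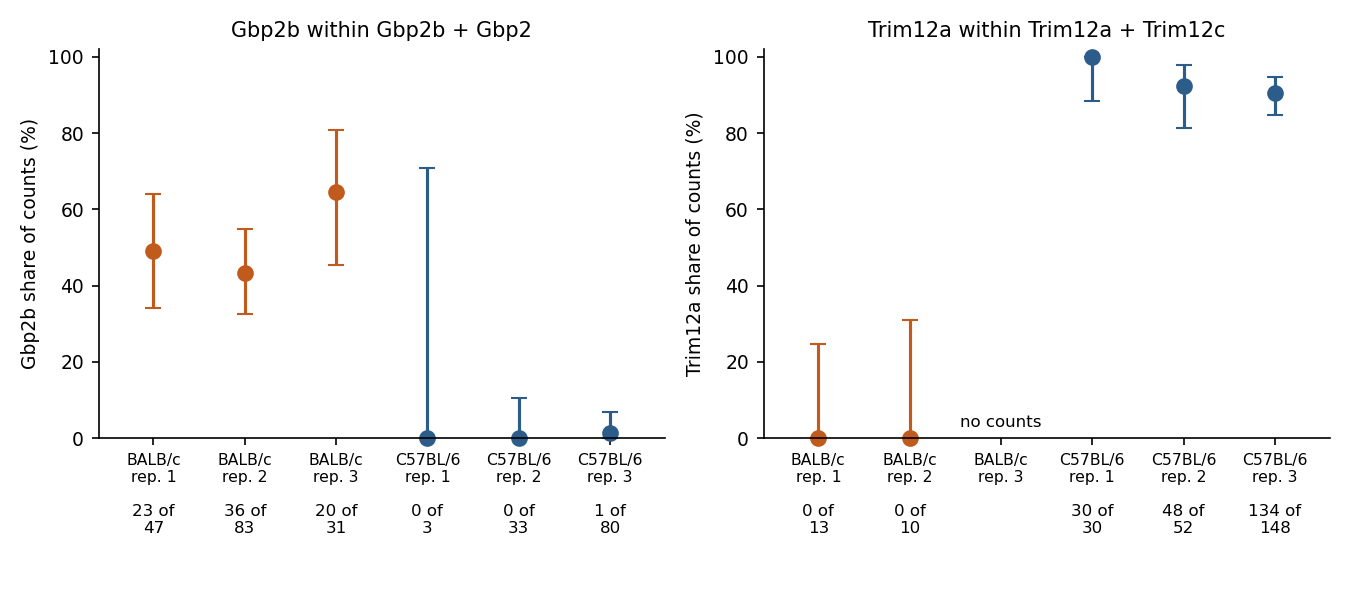
Share of counts taken by Gbp2b within Gbp2b and Gbp2 (left) and by Trim12a within Trim12a and Trim12c (right), in percent, for each library with BALB/c first. Points are shares, bars are exact 95% binomial intervals that cover counting error only, and the counts stand under each library: Gbp2b took 43.4% to 64.5% in BALB/c and at most 1.25% in C57BL/6, where replicate 1 has only 3 counts and a wide interval, while Trim12a took 0 of 23 counts in BALB/c and at least 90.5% in each C57BL/6 library.

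Gbp3 and Gbp7, on the other side of Gbp2b, varied between libraries more than between strains. Gbp3 had 18.7, 7.16 and 3.87 CPM in BALB/c replicates 1, 2 and 3, against 1.53, 11.7 and 13.3 CPM in C57BL/6 replicates 1, 2 and 3. The strains overlapped, with both the highest and a low value in BALB/c. Its mean was 9.90 ± 7.78 CPM in BALB/c, against 8.84 ± 6.38 CPM in C57BL/6, or 12.5 ± 1.09 CPM without C57BL/6 replicate 1. The ratio of its summed counts was 0.892, and 0.754 without that library, and both counting intervals include equal levels. Gbp7, which in the mouse is known to help to assemble the phagocyte oxidase, was near the floor, with 10, 4 and 0 counts in BALB/c replicates 1, 2 and 3 against 0, 3 and 5 counts in C57BL/6 replicates 1, 2 and 3. Its ratio of summed counts was 2.46 with a 95% counting interval of 0.963 to 6.77, so no difference was detectable at this depth. Its exons overlap those of Gm43802 on the same strand, so that its counts are uncertain.

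The sum of Gbp2b and Gbp2 lay between 29.7 and 31.4 CPM in the 3 BALB/c libraries, against 2.29, 25.8 and 16.3 CPM in C57BL/6 replicates 1, 2 and 3. The strains did not overlap in this sum, with 29.7 CPM in the lowest BALB/c library and 25.8 CPM in the highest C57BL/6 library. The ratio of summed counts was 1.95 with all libraries and 1.65 without C57BL/6 replicate 1. All 4 GBP members together came to 43.0 ± 12.1 CPM in BALB/c, against 24.8 ± 18.7 CPM in C57BL/6, and here the strains overlapped. The ratio of their summed counts was 1.55, and 1.31 without C57BL/6 replicate 1. Gbp2, Gbp3 and Gbp7 without Gbp2b came to 27.1 ± 13.5 CPM in BALB/c, against 24.7 ± 18.7 CPM in C57BL/6, a ratio of summed counts of 1.01.

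Trim12a showed the opposite contrast to Gbp2b, with no count in BALB/c. It had 0 counts in each of the 3 BALB/c libraries, against 30, 48 and 134 counts in C57BL/6 replicates 1, 2 and 3, which are 22.9, 37.5 and 27.3 CPM. The strains did not overlap. C57BL/6 replicate 1, low in the other members, held Trim12a near the level of replicates 2 and 3. Trim12a was at 29.3 ± 7.48 CPM in C57BL/6 (SD, n = 3). When 3 counts over the strain stand for 0, it was 50.3-fold lower in BALB/c, and the counting interval (95%) reaches down to 40.5-fold. Without C57BL/6 replicate 1 this value was 52.3-fold.

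Trim12c, which in the mouse is known to cooperate with the ubiquitin ligase Traf6 in interferon and NF-κB signalling, was counted in both strains. Its exons overlap those of Gm27995 on the same strand, so that its counts, and the shares and sums that use them, are uncertain. It had 13, 10 and 0 counts in BALB/c replicates 1, 2 and 3, against 0, 4 and 14 counts in C57BL/6 replicates 1, 2 and 3. These are 8.67, 3.58 and 0 CPM in BALB/c, against 0, 3.13 and 2.86 CPM in C57BL/6, with 1 library of each strain at 0. The ratio of summed counts was 1.80 with a 95% counting interval of 0.928 to 3.53, and 1.48 without C57BL/6 replicate 1. Trim12a and Trim12c together came to 8.67, 3.58 and 0 CPM in BALB/c replicates 1, 2 and 3, against 22.9, 40.6 and 30.2 CPM in C57BL/6 replicates 1, 2 and 3. The strains did not overlap in this sum, and since Trim30a is not in the table it is also the sum of all TRIM members.

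Trim12a took 0 of 13 and 0 of 10 counts of the Trim12a and Trim12c pair in BALB/c replicates 1 and 2, and BALB/c replicate 3 had no count of either gene. In C57BL/6 it made up 100% of 30, 92.3% of 52 and 90.5% of 148 counts in replicates 1, 2 and 3. Over the strain, 0 of 23 BALB/c counts had an exact 95% upper limit of 14.8%. Over C57BL/6 the share was 92.2%, with an exact 95% interval of 87.9% to 95.3%.

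Whether reads can be told apart between the paralogues was examined on the last 500 bases of 1 annotated transcript per gene, where 3′ reads fall. None of the 451 windows of 50 bases of Gbp2b, Gbp2, Gbp3, Gbp7 or Trim12a occurred in a transcript of another gene. In Trim12c 35 of 451 windows, or 7.76%, also occurred in Trim5. These letters are of the C57BL/6J reference. Whether BALB/c reads that mismatch it were lost in alignment or counted under a paralogue was not tested, so 0 counts of Trim12a in BALB/c are 0 counts assigned to that symbol.

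**Figure D2:**
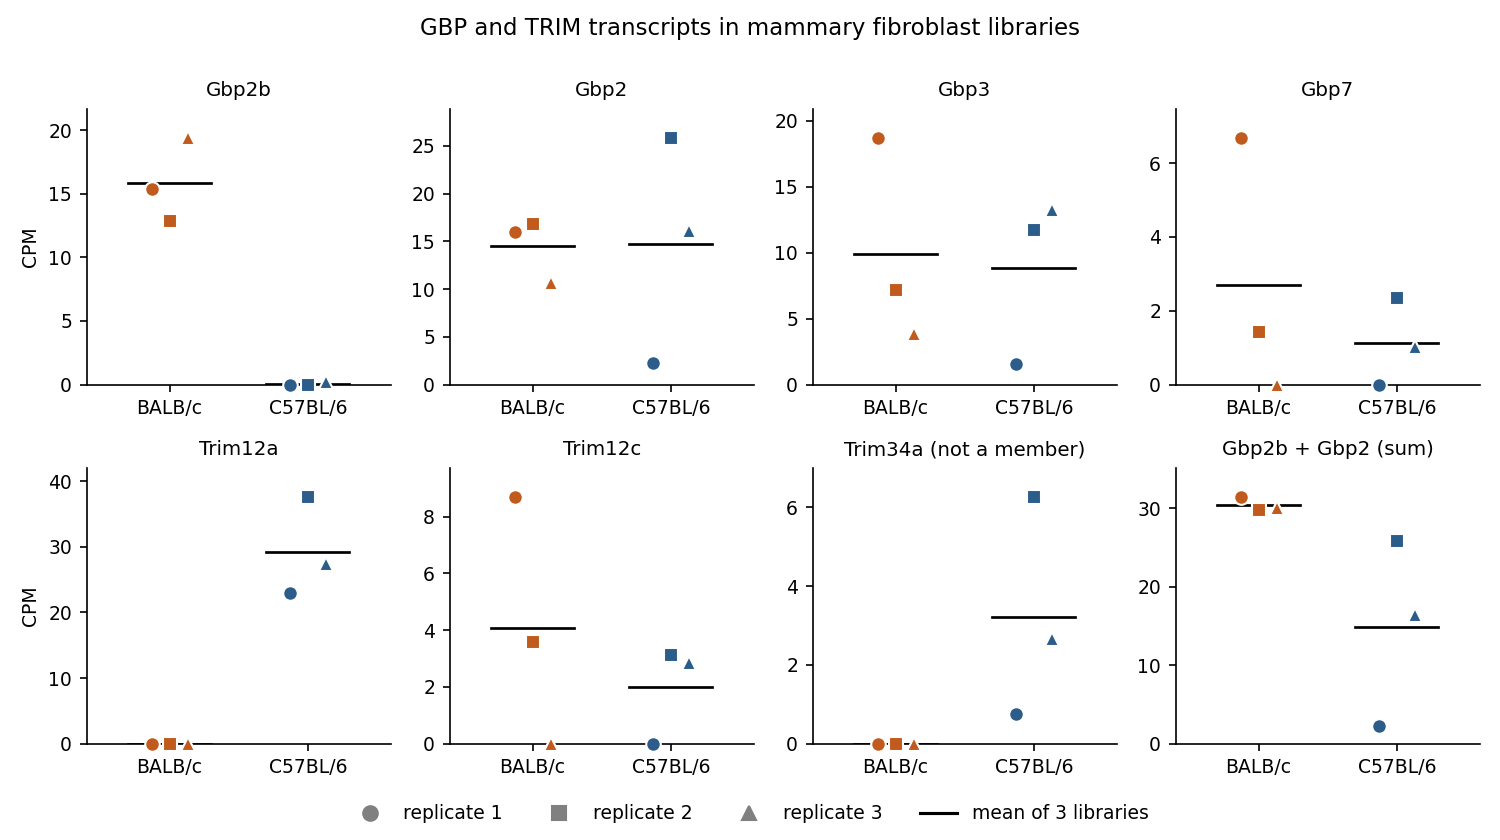
CPM (linear axes from 0) of the 6 members in the table, of Trim34a and of the sum of Gbp2b and Gbp2, with BALB/c left of C57BL/6 in each panel. Each symbol is 1 library and the line is the mean of 3: Gbp2b and Trim12a separate the strains in opposite directions, while Gbp2, Gbp3, Gbp7 and Trim12c overlap and are lowest or tied for lowest in C57BL/6 replicate 1.

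The list was chosen on this same contrast, so its members are described and not tested. Of the 6 members with counts, 4 passed the filter on low counts, while Gbp7 and Trim12c did not and, with no filter, were not called. Gbp2b and Trim12a were 2 of 18 genes past an adjusted p of 0.05 in edgeR's quasi-likelihood test, which called 0.206% of the 8752 genes tested, 0.0686% higher and 0.137% lower in BALB/c. At an unadjusted p under 0.05, Gbp2b and Trim12a were the members among 3.86% of all tested genes. DESeq2 also called both, with 0.811% of all genes, and limma-voom called neither, with 0.0343%. They were also the 2 of 6 members whose strains did not overlap in CPM, where 11.4% of all tested genes did not overlap. Nothing is read from these counts, since they are why the genes were listed. With 1 library left out, Gbp2b and Trim12a stayed past the threshold without C57BL/6 replicate 1 and lost it without each of the other 5 libraries, where the count of genes called was 0 to 5.

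Of the 8751 other tested genes, those whose centred log2 CPM followed a member most closely over the 6 libraries were taken by root mean square difference. For Gbp2b they were Tmem87a (0.28 on the log2 scale) and Cap1 (0.42). For Trim12a they were Rnaset2b (0.32) and Pdxdc1 (0.50). Rnaset2b had 2, 4 and 3 counts in BALB/c replicates 1, 2 and 3, against 127, 133 and 484 in C57BL/6 replicates 1, 2 and 3. For Gbp2 the closest were Kdm3a (0.10) and Chmp1b (0.12), and for Gbp3 they were Nexn (0.16) and Ms4a6d (0.23). Kdm3a had 25, 44 and 10 counts in BALB/c replicates 1, 2 and 3, against 3, 31 and 89 in C57BL/6 replicates 1, 2 and 3, close to the 24, 47 and 11 and the 3, 33 and 79 counts of Gbp2. The likeness is over the same 6 libraries on which the members were listed and is a description.

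**Figure D3:**
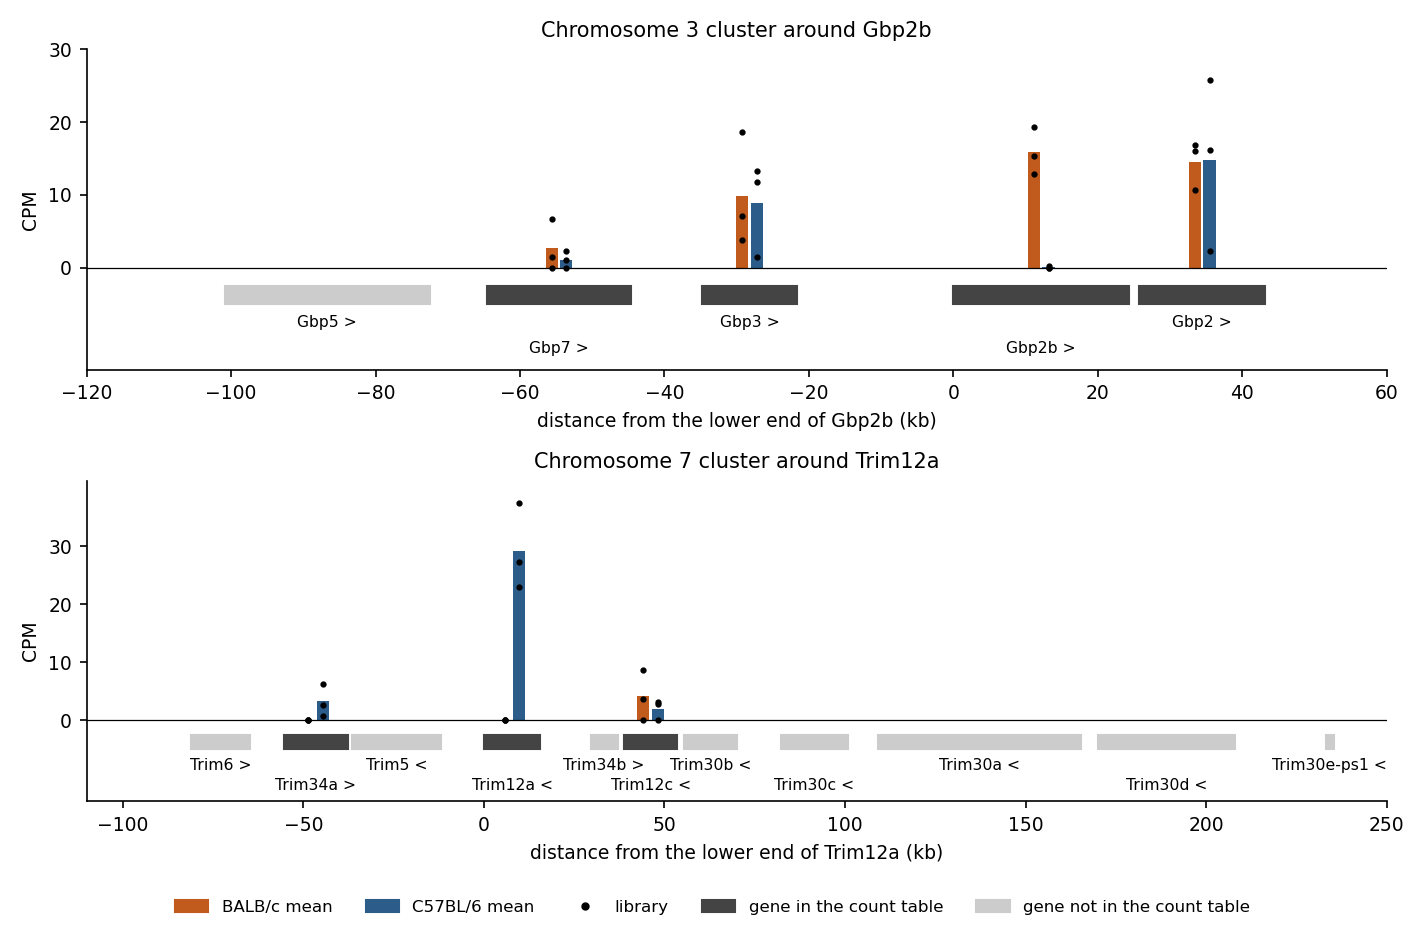
Members and their relatives along chromosome 3 (top) and chromosome 7 (bottom), as distance in kb from the lower end of Gbp2b and of Trim12a, with arrowheads beside each name for the strand. Bars above each gene in the count table are mean CPM per strain, with BALB/c left of C57BL/6, and points are libraries: Gbp2b alone of the chromosome 3 genes and Trim12a and Trim34a of the chromosome 7 genes have strains that do not overlap. For Trim34a this rests on 1 count in C57BL/6 replicate 1, below the floor of 3 counts.

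The rest of the chromosome 7 cluster was thinly covered. Of the 14 listed genes of the cluster and its wider neighbourhood, Trim12a, Trim12c, Trim34a, Trim21, Trim68 and Trim3 were in the table. Trim34a, a close relative of Trim5, lies on the other side of Trim5 from Trim12a, at 104244457 to 104262234 on the plus strand. It had 0 counts in each BALB/c library, against 1, 8 and 13 counts in C57BL/6 replicates 1, 2 and 3. The strains did not overlap, but this rests on the 1 count of C57BL/6 replicate 1, which is below the floor. With 3 counts over the strain in place of 0, it was 5.22-fold lower in BALB/c, and its counting interval reaches down to 3.90-fold. It did not pass the filter on low counts. With no filter it was among 32 TRIM genes outside the members that edgeR tested, of which 0 were called and 3 had an unadjusted p under 0.05. Its exons overlap those of Gm47248 on the opposite strand.

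In all, 19 of 12023 genes had 0 counts in all BALB/c libraries and at least 1 in each C57BL/6 library. Trim12a had the highest C57BL/6 sum of these, 212 counts, and Trim34a was another. Of the 19, 6 had a C57BL/6 sum of at least 22 counts, that of Trim34a. The reverse pattern, 0 in all C57BL/6 libraries and at least 1 in each BALB/c library, was that of 10 genes. These counts were made after the values of Trim12a had been seen. Trim12c had neither pattern.

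Trim21, an antibody receptor that also ligates ubiquitin, lies farther off on chromosome 7. It had 9.34, 6.08 and 7.74 CPM in BALB/c replicates 1, 2 and 3, against 0, 12.5 and 12.4 CPM in C57BL/6 replicates 1, 2 and 3. Its log2 difference was -0.17 ± 0.94 (SE; edgeR adjusted p = 0.982). Trim68 had 19, 13 and 6 counts in BALB/c and 2, 8 and 30 counts in C57BL/6, and was tested only with no filter, where it was not called. Trim3 had 41.3 ± 7.80 CPM in BALB/c, against 64.0 ± 15.5 CPM in C57BL/6 (log2 difference -0.63 ± 0.30, edgeR adjusted p = 0.954). Among 20 tested TRIM genes outside the members 0 passed in edgeR, DESeq2 or limma-voom, and 2 had an unadjusted edgeR p under 0.05, both lower in BALB/c. Trim56, a ligase of the antiviral STING and double-stranded RNA response, had the largest log2 difference, with 6.28 ± 4.64 CPM in BALB/c, against 18.9 ± 3.27 CPM in C57BL/6 (-1.68 ± 0.57, edgeR adjusted p = 0.954). Trim23 had the largest positive one, 1.38 ± 0.97 (edgeR adjusted p = 0.954). The median of the 20 genes was -0.13, beside 0.01 over all tested genes.

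The other GBPs were not among the genes used here. Gbp5, the next gene of the chromosome 3 cluster, and Gbp4, Gbp6, Gbp8, Gbp9, Gbp10 and Gbp11, which form a second cluster on chromosome 5, are not in the table. It lists only genes that reach 6 counts in some library, so a symbol it lacks may have been expressed at a lower level. On the flanks of the chromosome 3 cluster, Pdlim5 and Gtf2b were tested, and neither passed in edgeR, DESeq2 or limma-voom or had an unadjusted p under 0.05. Gtf2b, a general transcription factor, had 83.3 ± 3.42 CPM in BALB/c, against 62.5 ± 29.0 CPM in C57BL/6 (log2 difference 0.41 ± 0.39, edgeR adjusted p = 0.954). Pdlim5 differed by 0.38 ± 0.88 on the log2 scale (edgeR adjusted p = 0.959). No gene outside the TRIM family within 500 kb of a chromosome 7 member was tested.

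The receptors and factors that induce GBPs did not differ past the threshold. Of 19 tested interferon signalling genes 0 passed in edgeR, DESeq2 or limma-voom. An unadjusted edgeR p under 0.05 was that of 1 gene of the 19, beside 3.86% of all tested genes. That gene was Irf8, an interferon regulatory factor of myeloid cells, with 4.67, 2.15 and 3.87 CPM in BALB/c replicates 1, 2 and 3, against 22.2, 11.7 and 8.57 CPM in C57BL/6 replicates 1, 2 and 3. Its strains did not overlap, and its log2 difference was -1.998 ± 0.59 (edgeR adjusted p = 0.886). The summed macrophage and leukocyte markers were at 816 to 1182 CPM in BALB/c, against 1203 to 2255 CPM in C57BL/6, and their part in the Irf8 value was not tested. Ifnar1, a chain of the type I interferon receptor, had 8.88 ± 0.402 CPM in BALB/c, against 14.9 ± 2.06 CPM in C57BL/6 (log2 difference -0.75 ± 0.38, edgeR adjusted p = 0.954). Jak1, a kinase of these receptors, had 143 ± 12.6 CPM in BALB/c, against 127 ± 33.9 CPM in C57BL/6 (0.17 ± 0.27, edgeR adjusted p = 0.954). Stat3 differed by -0.75 ± 0.34 on the log2 scale (edgeR adjusted p = 0.954). The median of the list was -0.42, with 14 genes lower and 5 higher in BALB/c. Over all tested genes the median was 0.01, with 4284 lower and 4468 higher in BALB/c. Ifng and Ifnb1 were not in the table.

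Other targets of interferon likewise had no call. Of 27 tested interferon-stimulated genes outside the families 0 passed in edgeR, DESeq2 or limma-voom, and 4 had an unadjusted edgeR p under 0.05, all lower in BALB/c. Over all tested genes 0.206% were called by edgeR and 3.86% had an unadjusted p under 0.05. The median of this list was -0.31, with 20 genes lower and 7 higher in BALB/c. Cxcl10, a chemokine, had 7.23 ± 3.40 CPM in BALB/c, against 23.4 ± 12.7 CPM in C57BL/6 (log2 difference -1.66 ± 0.56, edgeR adjusted p = 0.954). Ifit3, of a family of antiviral RNA-binding proteins, had 7.84 ± 4.32 CPM in BALB/c, against 20.5 ± 7.75 CPM in C57BL/6 (log2 difference -1.47 ± 0.60, edgeR adjusted p = 0.954). Ifitm3, which blocks the entry of viruses, was among the most abundant, with 1405 ± 220.1 CPM in BALB/c, against 1486 ± 184 CPM in C57BL/6 (-0.08 ± 0.23, edgeR adjusted p = 0.967). Bst2, called tetherin because it holds budding viruses on the cell, had 681 ± 174 CPM in BALB/c, against 1112 ± 182 CPM in C57BL/6 (-0.71 ± 0.28, edgeR adjusted p = 0.954). Summed, the list came to 4123 to 5154 CPM in BALB/c, against 5182 to 6689 CPM in C57BL/6. C57BL/6 replicate 1, the lowest library for Gbp2, was the highest for this sum. In that library 5 of the 29 summed genes were nonetheless at 0, against at most 1 in each other library. Such a sum gives most weight to abundant genes such as Ifitm3 and Bst2.

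The immunity-related GTPases, which act with GBPs on vacuoles, gave no call. Of 5 tested genes of this list 0 passed in edgeR, DESeq2 or limma-voom, and 0 had an unadjusted edgeR p under 0.05. Irgm1, a regulator of the group, had 150.1, 66.2 and 55.2 CPM in BALB/c replicates 1, 2 and 3, against 4.58, 156 and 52.6 CPM in C57BL/6 replicates 1, 2 and 3. Its strains overlapped, and C57BL/6 replicate 1 was the lowest library, as it was for Gbp2 and Gbp3. That library was also the lowest for genes outside these families, such as Pdlim5, Chuk and Kdm3a, and the highest for others, such as Stat3 and Lgals3. Igtp, also called Irgm3, had 25.1 ± 4.25 CPM in BALB/c, against 35.6 ± 19.0 CPM in C57BL/6 (log2 difference -0.51 ± 0.47, edgeR adjusted p = 0.954). Ifi47 had 16.2 ± 3.35 CPM in BALB/c, against 10.01 ± 10.3 CPM in C57BL/6 (0.70 ± 0.83, edgeR adjusted p = 0.954). Irgq had 36.8 ± 4.99 CPM in BALB/c, against 38.9 ± 4.95 CPM in C57BL/6. The median log2 difference of the 5 was 0.33.

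Partners of the 2 families gave no call either. Of 18 tested genes that act with GBPs at membranes or in inflammasomes, 0 passed in edgeR, DESeq2 or limma-voom, and 1 had an unadjusted edgeR p under 0.05. It was Lgals3, a galectin that marks broken vacuoles, with 380.0 ± 51.5 CPM in BALB/c, against 773 ± 324 CPM in C57BL/6 (log2 difference -1.02 ± 0.34, edgeR adjusted p = 0.954). Casp4, the caspase that senses bacterial lipopolysaccharide and is called caspase-11 in the mouse, had 24, 1 and 7 counts in BALB/c replicates 1, 2 and 3, against 1, 35 and 78 counts in C57BL/6 replicates 1, 2 and 3. Gabarap and Sqstm1, of autophagy, had log2 differences of -0.45 ± 0.27 (edgeR adjusted p = 0.954) and -0.13 ± 0.36 (edgeR adjusted p = 0.967). The median of the list was -0.29. Of 17 tested genes of TAK1 and NF-κB signalling, on which TRIM5 and TRIM30 proteins act, 0 passed in edgeR, DESeq2 or limma-voom, and 0 had an unadjusted edgeR p under 0.05. Rela, a subunit of NF-κB, had 112 ± 14.2 CPM in BALB/c, against 172 ± 49.3 CPM in C57BL/6 (-0.62 ± 0.28, edgeR adjusted p = 0.954). Ppia, cyclophilin A, which binds retroviral capsids, had a log2 difference of 0.63 ± 0.52, Chuk, an NF-κB kinase, one of 0.93 ± 0.77, and Tnfaip3, a brake on NF-κB, one of 0.83 ± 0.62 (edgeR adjusted p = 0.954 for each). The median of this list was 0.10.

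**Figure D4:**
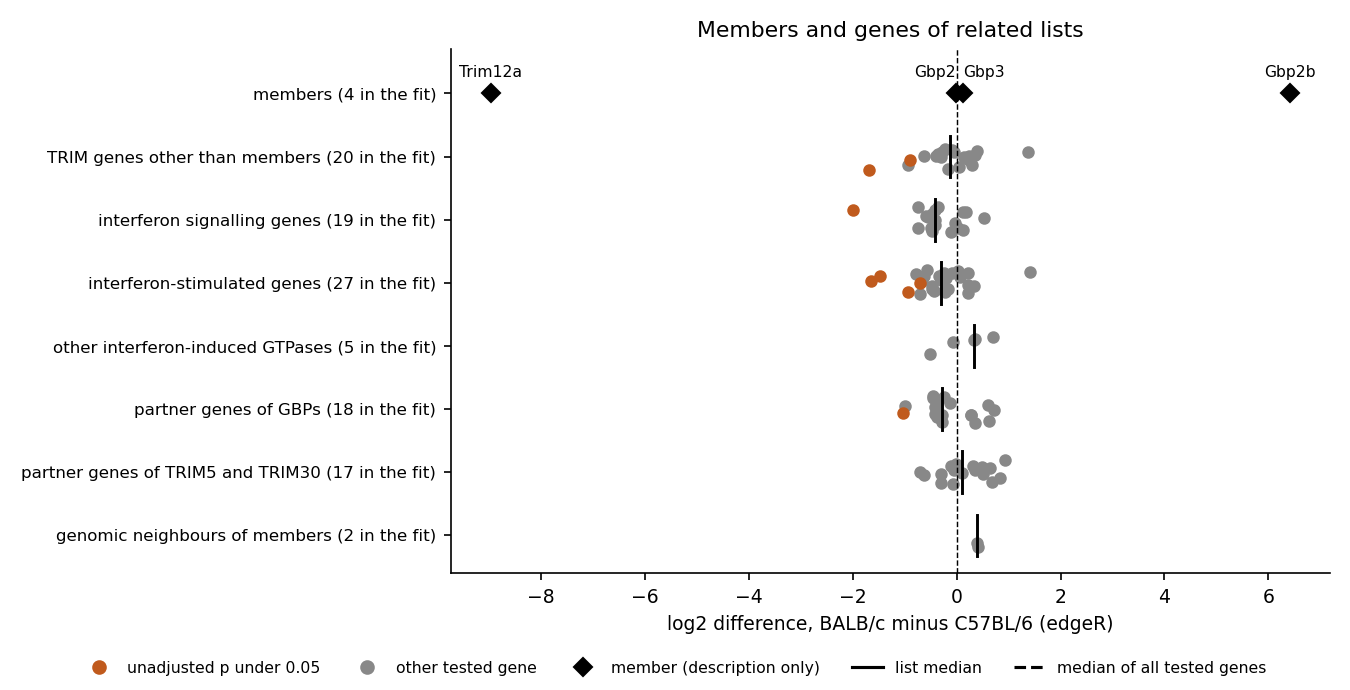
Log2 differences, BALB/c minus C57BL/6, from edgeR for the 4 members in the fit and for the genes of the related lists, 1 point per gene, with the list median as a line the median of all 8752 tested genes dashed and genes with an unadjusted p under 0.05 in orange. The fitted values of Gbp2b and Trim12a depend on how counts of 0 are handled and serve only to place them: all other points lie between -1.998 and 1.41.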

How the data were processed

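The values deposited are unnormalised read counts by gene symbol in 6 libraries. The submitters' processing notes name STAR 2.4.2a, HTSeq, bcl2fastq and mm10, and per the labels' protocols libraries covered mRNA 3′ ends. No source used here gives the use of molecular identifiers or strand, or what became of reads with several matches, so counts of paralogues and overlapping genes are uncertain. Columns were matched by the library names in the labels.

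Counts were tested two-sided with edgeR 4.0.16 in R 4.3.3, with filterByExpr, TMM factors of 0.866 to 1.06, a robust quasi-likelihood fit with strain as the only term and Benjamini-Hochberg adjustment over 8752 genes. Log2 differences are BALB/c minus C57BL/6, ± SE. CPM are counts-per-million of the TMM-scaled total, ± SD. Alternatives were DESeq2 1.42.0, limma-voom (limma 3.58.1), other scalings and filters, a replicate block and leaving out each library. Counting intervals and shares are exact at 95% and cover counting error only. Log2 CPM for nearest genes used a prior count of 2, for members with a mean of at least 10 counts. On simulated data of 8752 genes edgeR recovered 97% of 100 genes changed by 3 on the log2 scale and 99% of 100 changed by 5. It made 8 false calls among the genes left unchanged. Changes smaller than 3 were not simulated. Recovery of differences as small as those of the related lists, -1.998 to 1.41, was therefore not measured. The changed genes had higher mean counts than Gbp2b, Gbp7, Trim12c and Trim34a, so recovery at the level of these genes was not measured. All simulated libraries shared a mean profile, so a library that stands apart, as C57BL/6 replicate 1 does, was not simulated. Positions are from GENCODE vM21. Members and lists were chosen with earlier results of these data known. Named were the members, every cluster gene in the table, the nearest tested neighbours, the 2 nearest genes by pattern and, of each list with no call, the 2 genes with the highest level and the 2 with the largest difference (for other TRIM genes, only the 2 with the largest difference).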

Additional observations from a re-analysis of the deposited data

How the results depend on the processing

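The number of genes called between the strains depended on the tool and the libraries. Against 18 in edgeR it was 71 with DESeq2, 3 with limma-voom, 11 with library totals alone and 0 with the replicate block, and 0 to 25 with 1 library left out. Same-numbered libraries deviated from their strain means with correlations of -0.419, -0.397 and -0.0775, which show no likeness by number. These correlations do not tell whether same-numbered libraries were prepared together, so the result with the block is kept beside the others. No alternative called a gene of the related lists, and no other GBP could be fitted, as none is in the table. The cause of the changes in the number of calls was not tested. Gbp2b was called in 5 of the 12 alternatives that tested it and Trim12a in 4 of 12. The mean difference in log2 CPM kept its sign in 9 of 9 scalings, prior counts and left-out libraries for Gbp2b, Trim12a and the sums of Gbp2b with Gbp2 and of Trim12a with Trim12c. For Gbp2b and Trim12a the kept sign was fixed in advance, since they were listed for this contrast and their strains do not overlap. The sums contain these genes, so the kept signs are no support. For Gbp2 the mean difference ran from -0.50 to 1.04 and for Gbp3 from -0.56 to 0.74. For Gbp7 it ran from -0.30 to 1.27 and for Trim12c from -0.25 to 1.48. No direction can be given for these 4. Depth limits Gbp7, Trim12c and Trim34a most, with at most 14 counts in any library.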
